A study of Mus musculus with 8 samples.

Results

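The 10 genes described here encode enzymes that cut the extracellular matrix and the inhibitors of these enzymes. They are the matrix metalloproteinases *Mmp2*, *Mmp3* and *Mmp14*, the tissue inhibitors of metalloproteinases *Timp1* to *Timp4*, and the secreted proteases *Adamts1*, *Adamts4* and *Adamts9*. They were chosen by name, and every spot with one of these names on the array was taken. That gave 20 probes out of 56605, of which 5 genes had 1 probe each and 5 had several. Gene expression was measured in tissue labelled as brown adipose tissue (BAT) of 12-week-old male C57BL/6J mice on 8 one-color Agilent arrays. Control mice (Co, n = 4 arrays) received 100 μL of saline intravenously, and Pg mice (n = 4 arrays) received the same volume with sonicated *Porphyromonas gingivalis*, a Gram-negative bacterium of the gums. The labels print the dose as 108 CFU, in which 8 is an exponent of 10, and the tissue was taken 18 h after the injection in both groups. The bacteria were sonicated before the injection, which the paper used to induce endotoxemia. No check for live bacteria after the sonication is given.

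Matrix metalloproteinases are zinc proteases that are made as inactive precursors. MMP14 sits in the cell membrane and activates pro-MMP2, a gelatinase, in a complex that needs TIMP2, while MMP3 (stromelysin 1) cleaves proteoglycans, fibronectin and other matrix proteins. TIMPs bind the active site of these enzymes. TIMP1 is the soluble and readily induced member of the family, TIMP3 binds to the matrix and also inhibits ADAM and ADAMTS proteases, and TIMP4 is known for its expression in adipose tissue and heart. ADAMTS1, ADAMTS4 and ADAMTS9 cleave large proteoglycans such as aggrecan and versican. In adipose tissue these genes are expressed mainly by stromal and vascular cells, while adipocytes express some of them as well.

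The probes and promoters printed next belong to the genes with a tested probe whose groups did not overlap. The probe of *Adamts4*, with the largest fitted difference, and the promoter of *Mmp3*, which alone held the AP-1 motif, were added. Each probe is 60 bases long, and its first 30 bases are shown 5′ to 3′ in lower case. *Adamts9* is shown with 2 probes because they were designed on different transcripts and differed in the size of the change.
Timp1 A_52_P87713: tctgaggactaccagagccgtcactttgct
Adamts9 A_51_P479390: tgcagattcttcctatgtacactgctttct
Adamts9 A_55_P2504780: gccagagcacttggtgtttgaacaagtgtc
Adamts4 A_55_P2159555: aatgagaggaacaggatgtggtctggtatt
Adamts1 A_52_P489295: gaaagagctcctgatttcttcttacaccat

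Promoters came from RefSeq (GRCm38.p6) and hold 250 bases before an annotated start and 50 bases from it on. They were found for 8 of the 10 genes, all but *Adamts4* and *Mmp2*. The 4 that follow are those of *Timp1*, *Adamts9* and *Adamts1*, whose groups did not overlap on 1 or more tested probes, and of *Mmp3*. Capitals mark the motifs that were found. Positions count from the start used as 1, and the base before it is -1. For *Adamts9*, on the minus strand, that start lies inside the gene span (chr6:92772699-92944450) and not at its first base.
Timp1 chrX:20869916-20870215, plus strand: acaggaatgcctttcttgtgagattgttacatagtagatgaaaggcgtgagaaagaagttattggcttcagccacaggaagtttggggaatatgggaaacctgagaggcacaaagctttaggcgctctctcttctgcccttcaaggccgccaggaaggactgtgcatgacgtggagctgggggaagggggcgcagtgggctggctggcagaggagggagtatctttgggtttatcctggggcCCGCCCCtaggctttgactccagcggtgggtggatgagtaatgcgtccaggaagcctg
Adamts9 chr6:92943485-92943784, minus strand: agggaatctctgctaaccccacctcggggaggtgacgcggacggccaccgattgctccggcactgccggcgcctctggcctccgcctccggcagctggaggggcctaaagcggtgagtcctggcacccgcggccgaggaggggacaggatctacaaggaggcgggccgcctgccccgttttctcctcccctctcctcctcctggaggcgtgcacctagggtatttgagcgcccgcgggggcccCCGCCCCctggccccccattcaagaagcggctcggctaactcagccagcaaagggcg
Adamts1 chr16:85803064-85803363, minus strand: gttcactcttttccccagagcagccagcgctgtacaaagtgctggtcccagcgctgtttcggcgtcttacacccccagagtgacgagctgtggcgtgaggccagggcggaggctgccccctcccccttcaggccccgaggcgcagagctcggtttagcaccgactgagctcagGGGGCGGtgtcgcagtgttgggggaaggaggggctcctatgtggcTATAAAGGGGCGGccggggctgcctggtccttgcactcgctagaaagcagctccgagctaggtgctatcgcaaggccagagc
Mmp3 chr9:7445572-7445871, plus strand: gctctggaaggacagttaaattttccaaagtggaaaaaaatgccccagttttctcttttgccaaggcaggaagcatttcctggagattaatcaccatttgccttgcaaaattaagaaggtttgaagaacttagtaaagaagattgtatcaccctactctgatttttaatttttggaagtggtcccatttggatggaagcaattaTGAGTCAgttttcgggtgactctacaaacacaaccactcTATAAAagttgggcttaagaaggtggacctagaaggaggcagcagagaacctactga

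A search of both strands for 5 motifs covered all 8 promoters. The AP-1 motif, spelled TGANTCA, was found only in *Mmp3*, at position -46, while 7.81% of all 32851 promoters in the table held it. The SP1 motif, spelled GGGGCGG, was found in *Timp1* at -8, in *Adamts9* at -7, in *Adamts1* at -77 and -26, in *Mmp14* at -20 and -14 and in *Timp3* at 14, against 23.2% of all promoters. The 2 matches in *Mmp14* overlap by 1 base. The TATA motif, spelled TATAAA, was found in *Adamts1* at -32, where it directly precedes an SP1 match, and in *Mmp3* at -7, against 13.6% of all promoters. The CRE motif, spelled TGACGTCA (1.79% of all promoters), was found in none of the 8. Neither was the ETS motif, spelled CCGGAAG (8.86% of all promoters). The promoters of *Timp2* and *Timp4* held none of the motifs. A match is a string of letters only, and no binding was measured.

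Values are log2 intensities after quantile normalization, and each difference is Pg minus Co on that scale. Of the 20 probes, 17 probes of 9 genes were well above background on at least 4 of the 8 arrays and were tested; *Mmp3* and 2 of 3 *Adamts4* probes were not. All 17 passed on all 4 Co arrays, and 16 on all 8 arrays, so that no probe was tested only because it was high in Pg mice. No spot of these genes was saturated. The number of probes well above background ranged from 34760 to 35831 in Co mice and from 31132 to 34063 in Pg mice, without overlap. All arrays shared 1 slide and 1 scan, with the Co arrays in the first row and the Pg arrays in the second, so row and group cannot be told apart. The replicate number equalled the slide column on all 8 arrays. Of the 8 markers of brown adipocytes, *Cidea* (mean log2 signal 13.39), *Ppargc1a* (12.26), *Dio2* (8.58), *Cox7a1* (17.83) and *Cox8b* (18.00) were well above background on all arrays, as were 7 of 7 markers of adipocytes in general, while *Ucp1*, *Elovl3* and *Slc27a2* were so on none, although *Ucp1* defines this cell type. All 8 skeletal muscle markers were well above background on all arrays, at mean log2 signals of 15.34 to 18.84. Whether the signal of the 5 bright brown adipocyte markers came from brown adipocytes or from muscle was not tested. *Atp2a1*, a calcium pump of muscle, was lower in Pg mice (-0.44, adjusted p of 0.0411 in limma), and *Ckm*, muscle creatine kinase, differed by -0.15 (adjusted p of 0.186 in limma), both without overlap. Of the 8 muscle markers 6 were fitted lower, but the median difference was -0.02. All but *Atp2a1* and *Ckm* differed by less than their SE, so the count of signs shows no common fall. Under 75th-percentile scaling the median was -0.17 and no muscle marker was fitted higher. The same held without normalization, at a median of -0.12. The summed signal of the muscle markers overlapped between the groups. It was 20.88 to 21.00 in Co mice and 20.84 to 21.00 in Pg mice, in log2 units. The part of muscle in the values of the genes described here was not tested. The name BAT is used here as the label gives it. In whole tissue, more cells of a type and more RNA per cell cannot be told apart.

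None of the 17 tested probes met the study's definition of a differentially expressed gene, a false discovery rate (FDR) q under 0.1 in limma with a fold change above 1.5. Among all 33819 tested probes 1.61% did, 106 higher (0.313%) and 440 lower (1.3%) in Pg mice. This split moved to 137 higher and 146 lower with scaling to the 75th percentile, to 66 and 28 with normexp background correction, to 75 and 33 on the median signal, to 20 and 7 without normalization between arrays and to 60 and 46 in the authors' normalized values. Without Co 3 it was 1 higher and 2 lower. A q under 0.1 without the fold limit was found for 3 of the 17 probes (17.6%), all higher in Pg mice, against 7.82% of all tested probes (1.82% higher and 6% lower). They were 1 probe of *Timp1* and 2 of *Adamts9*. An unadjusted p under 0.05 was found for 6 probes (35.3%), against 22.8% of all. The groups did not overlap for 4 probes (23.5%), with all Pg arrays above all Co arrays, against 15.8% of all tested probes (4.83% higher and 11% lower). The fitted difference was above 0 for 14 of the 17 probes (82.4%), against 42.3% of all, and the median difference was 0.19, against -0.04 over all tested probes. Several of the 17 probes belong to the same gene, so these counts are not counts of independent genes. The count of 0 turned to 2 without Pg 3 or with scaling to the 75th percentile. It was 1 without Pg 2, in the authors' normalized values, with the filter on all 8 arrays and with an intensity trend. The count of 3 fell to 0 without any single Co array, without Pg 1 or without Pg 4, and to 1 without Pg 2. It was also 0 with the slide column, which is the replicate number, as a block, where the adjusted p in limma was 0.167 for *Timp1* and 0.127 and 0.147 for the 2 *Adamts9* probes.

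**Figure D1:**
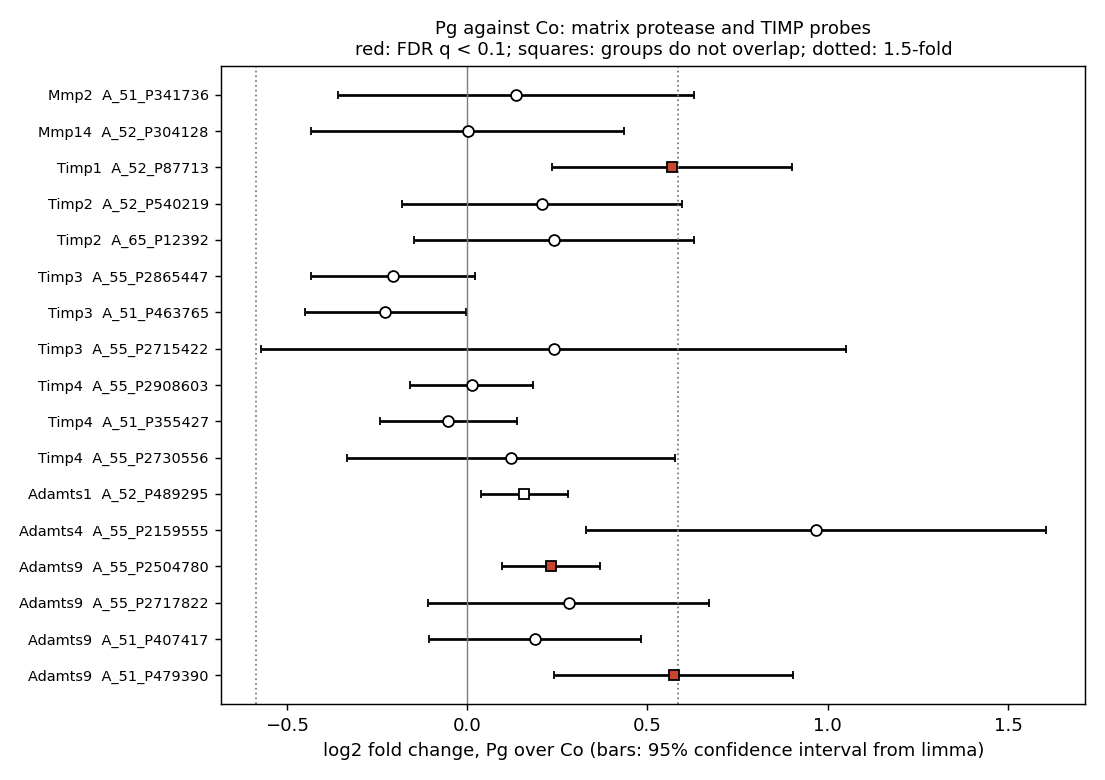
The horizontal axis is the fitted log2 fold change, Pg over Co, with its 95% confidence interval from limma, for each of the 17 tested probes. The 3 red points have an FDR q under 0.1, the 4 squares mark groups that did not overlap, and the dotted lines stand at a fold change of 1.5; only the *Adamts4* point lies beyond that line.

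**Figure D2:**
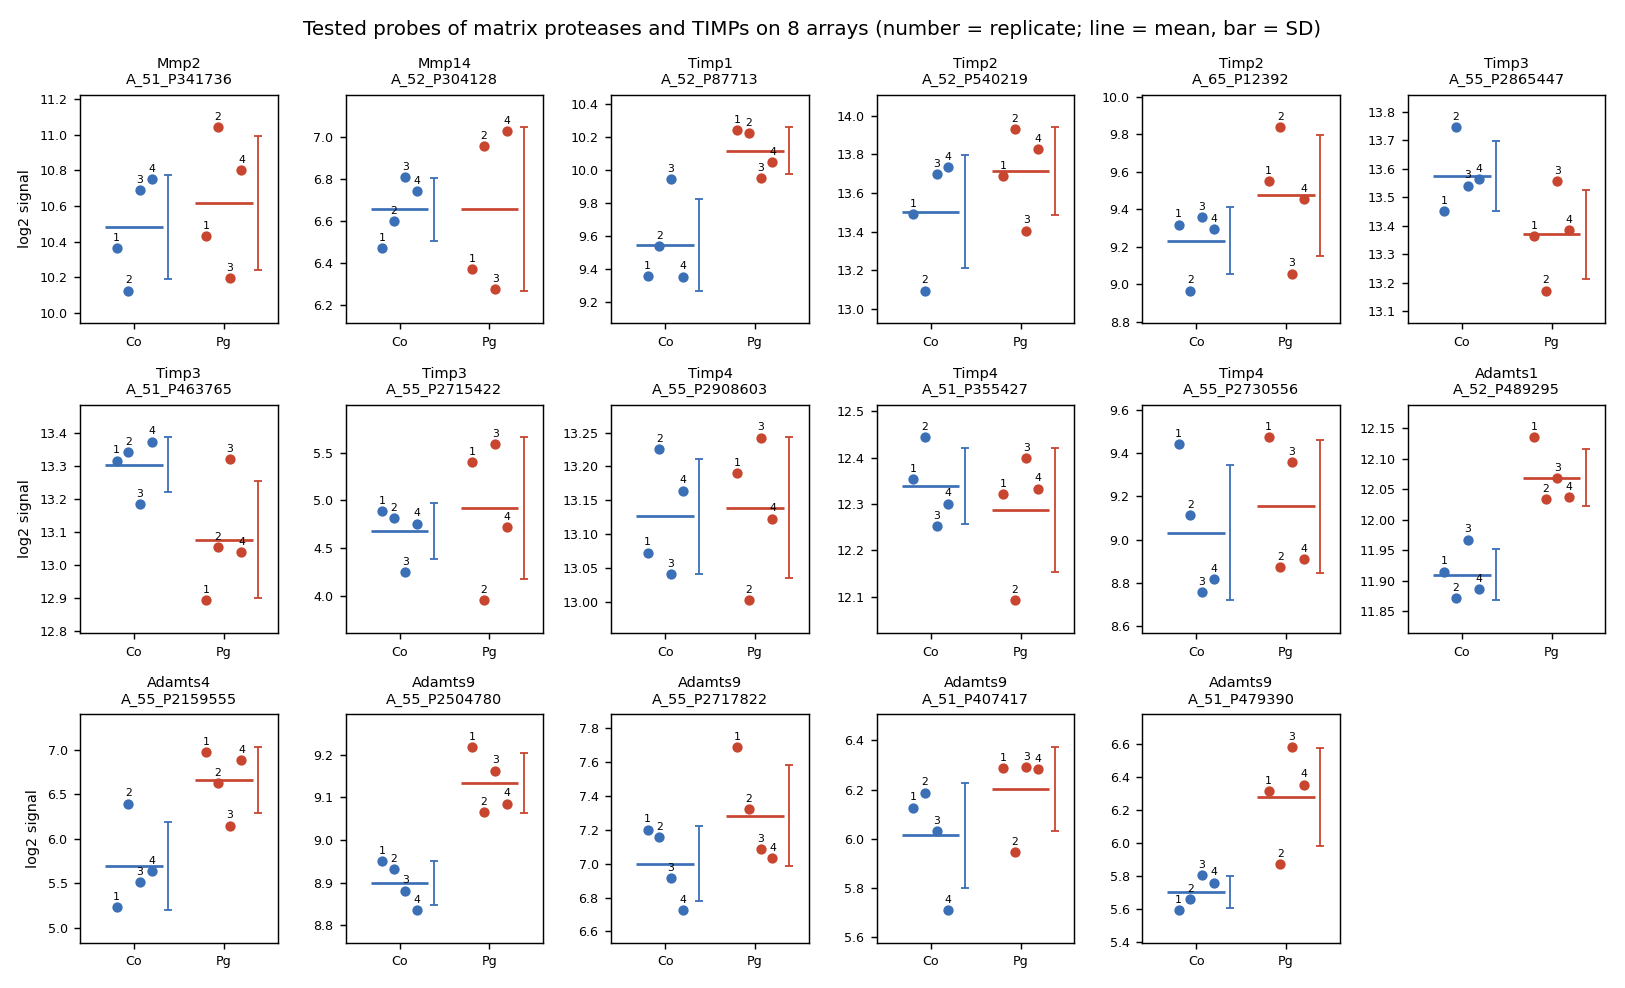
Each panel shows 1 tested probe on 8 arrays, with the log2 signal on the vertical axis, the replicate number beside each point, a line for the mean and a bar for the SD (n = 4 per group). The panels of *Timp1*, *Adamts1*, *Adamts9* A_51_P479390 and *Adamts9* A_55_P2504780 are those in which every Pg point lies above every Co point, and the vertical scale differs between panels.

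The proteases *Mmp2* and *Mmp14* did not differ between the groups beyond the spread between arrays. *Mmp2* (Entrez gene 17390, chr8:92827290-92853421 in GRCm38.p6, which overlaps the lncRNA gene *Gm45472* at its end) was at 10.36, 10.12, 10.69 and 10.75 in Co mice and at 10.43, 11.04, 10.20 and 10.80 in Pg mice. Its groups overlapped over nearly their whole range, with the highest array in Pg 2 and the lowest in Co 2. The difference was 0.14 (SE 0.21, 95% interval -0.36 to 0.63), with an adjusted p of 0.739 in limma. *Mmp14* (Entrez gene 17387, chr14:54431598-54442456) was at 6.47, 6.60, 6.81 and 6.74 in Co mice and at 6.37, 6.95, 6.28 and 7.03 in Pg mice. The Pg arrays were split, with Pg 2 and Pg 4 above all Co arrays and Pg 1 and Pg 3 below them. The difference was 0.00 (SE 0.19, interval -0.43 to 0.44), with an adjusted p of 0.996 in limma. The sign of this difference turned with the background correction and with several single arrays left out. The intervals of both genes leave room for differences in either direction that these 4 arrays per group could not resolve.

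*Mmp3* (Entrez gene 17392, chr9:7445822-7455975) was well above background on 1 array alone, Pg 1, and was not tested. Its measured values were 2.52, 2.67, 3.00 and 2.47 in Co mice and 5.66, 4.01, 3.57 and 3.13 in Pg mice. Values that are not well above background have no order, so no fold and no overlap are given.

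*Timp1*, a soluble inhibitor of most matrix metalloproteinases, was higher in Pg mice. *Timp1* (Entrez gene 21857, chrX:20870166-20874737, within the span of *Syn1*) was at 9.36, 9.54, 9.95 and 9.36 in Co mice and at 10.24, 10.23, 9.95 and 10.05 in Pg mice. The groups did not overlap, by a narrow margin, since the highest Co array, Co 3, was at 9.947 and the lowest Pg array, Pg 3, at 9.951. The mean was 9.55 ± 0.28 (SD, n = 4) in Co mice and 10.12 ± 0.14 in Pg mice. The difference of 0.57 (SE 0.14, interval 0.24 to 0.90), a 1.48-fold higher signal, had an adjusted p of 0.0807 in limma and stayed just under the fold limit of 1.5. With 1 array left out at a time the difference was 0.50 to 0.70 and the adjusted p 0.0922 to 0.163, under 0.1 only without Pg 3, when the difference was 0.62.

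*Timp2*, which inhibits MMP2 and also takes part in its activation, was measured by 2 probes. *Timp2* (Entrez gene 21858, chr11:118301061-118355411, a span that holds *Cep295nl*) was at 13.49, 13.10, 13.70 and 13.73 in Co mice and at 13.69, 13.93, 13.41 and 13.83 in Pg mice on the brighter probe, A_52_P540219. The groups overlapped, with Co 2 lowest and Pg 2 highest. The difference was 0.21 (SE 0.17, interval -0.18 to 0.60), with an adjusted p of 0.500 in limma. The second probe, A_65_P12392, is mapped across 6778 bases in mm9, more than its 60 bases and so across an intron. Its difference was 0.24 (SE 0.17), with an adjusted p of 0.429 in limma. Both probes had their lowest Co array in Co 2 and their lowest Pg array in Pg 3, as *Mmp2* did.

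*Mmp2*, *Mmp14* and *Timp2*, the 3 genes of the pro-MMP2 activation complex, overlapped between the groups on all 4 of their probes. In Pg mice all 4 probes of these genes were highest in Pg 2 or Pg 4 and lowest in Pg 3. The summed signal of 7 fibroblast markers (*Pdgfra*, *Dpt*, *Pi16*, *Col1a1*, *Col1a2*, *Col3a1* and *Lum*) was 15.59, 15.28, 15.85 and 16.01 in Co mice and 15.69, 16.06, 15.45 and 16.19 in Pg mice, in log2 units. It too was lowest in Co 2 and in Pg 3, and the groups overlapped. All 7 markers were well above background on all 8 arrays. The summed signal of 7 macrophage markers was lowest on the same arrays, at 11.88, 11.81, 12.28 and 12.21 in Co mice and at 12.33, 12.77, 11.54 and 12.58 in Pg mice. The part of these cells in the values was not tested.

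**Figure D3:**
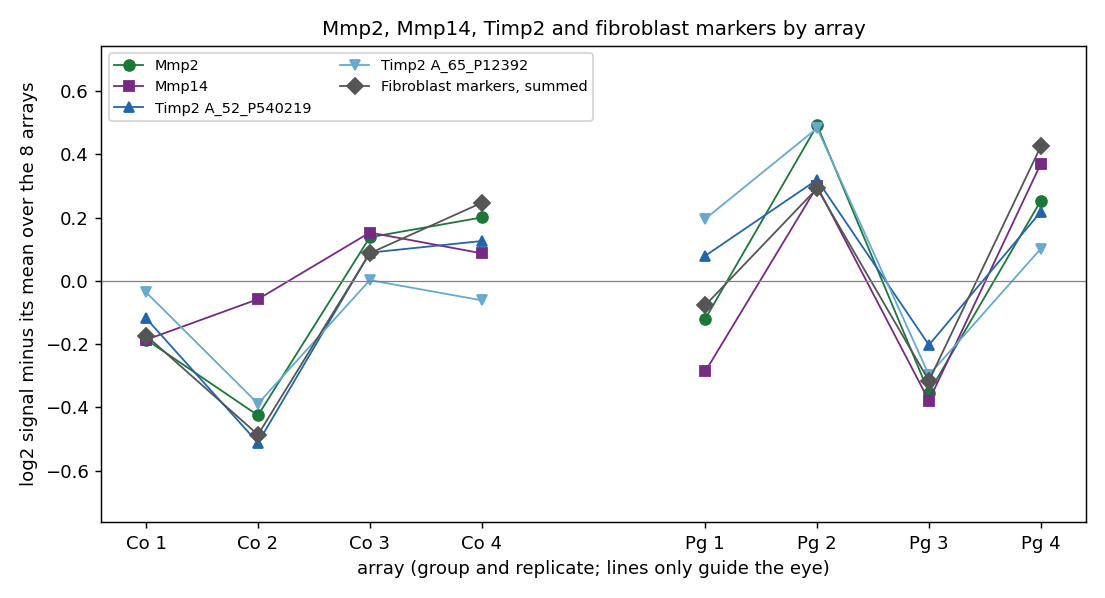
The vertical axis is the log2 signal minus its mean over the 8 arrays, and the horizontal axis lists the arrays, for the probes of *Mmp2*, *Mmp14* and *Timp2* and for the summed signal of 7 fibroblast markers. Pg 3 is the lowest Pg array in each of the 5 series, and Co 2 is the lowest Co array in all of them but *Mmp14*; the lines only guide the eye.

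*Timp3*, the matrix-bound inhibitor, was the only one of the 9 tested genes whose brightest probe was lower in Pg mice, and it did not pass the threshold. With normexp or the median signal those of *Mmp14* and *Timp4*, near 0, were lower as well. *Timp3* (Entrez gene 21859, chr10:86300412-86349505, within the span of *Syn3*) was at 13.45, 13.74, 13.54 and 13.56 in Co mice and at 13.36, 13.17, 13.56 and 13.39 in Pg mice on A_55_P2865447. Only Pg 3 lay within the Co range, and Pg 1, Pg 2 and Pg 4 lay below it. The difference was -0.21 (SE 0.10, interval -0.43 to 0.02), with an adjusted p of 0.260 in limma. A second probe of the same RefSeq transcript, A_51_P463765, gave -0.23 (SE 0.10, interval -0.45 to -0.003), with an adjusted p of 0.214 and an unadjusted p of 0.0476 in limma. On that probe too the Pg arrays other than Pg 3 lay below all Co arrays, and without Pg 3 its difference was -0.31 with an adjusted p of 0.0911 in limma. The third probe, A_55_P2715422, was designed on another transcript (ENSMUST00000151134) and was dim, at 4.25 to 4.89 in Co mice and 3.96 to 5.59 in Pg mice. Its difference of 0.24 had the opposite sign to the other probes and an SE of 0.35, with an adjusted p of 0.719 in limma.

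*Timp4* (Entrez gene 110595, chr6:115244444-115252205, within the span of *Syn2*) showed no difference larger than the spread between arrays on any of its 3 probes. On the brightest, A_55_P2908603, it was at 13.07, 13.23, 13.04 and 13.16 in Co mice and at 13.19, 13.00, 13.24 and 13.12 in Pg mice. The lowest and the highest array were both Pg arrays, Pg 2 and Pg 3. The difference was 0.01 (SE 0.07, interval -0.16 to 0.18), with an adjusted p of 0.931 in limma, and its sign turned with the background correction and the scaling. The other probes gave -0.05 (A_51_P355427, interval -0.24 to 0.14) and 0.12 (A_55_P2730556, interval -0.33 to 0.58), with adjusted p of 0.742 and 0.748 in limma.

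*Adamts1* (Entrez gene 11504, chr16:85793827-85803113) was fitted slightly higher in Pg mice, without a q under 0.1, on its single probe, which is mapped to chr16:85795044-85795103 in mm9. It was at 11.91, 11.87, 11.97 and 11.89 in Co mice and at 12.13, 12.03, 12.07 and 12.04 in Pg mice. The groups did not overlap, and the arrays of each group lay within a narrow range (SD 0.04 in Co and 0.05 in Pg mice). The difference was 0.16 (SE 0.05, interval 0.04 to 0.28), a 1.12-fold higher signal, with an adjusted p of 0.134 in limma. The adjusted p was under 0.1 in 1 of 17 alternative fits, at 0.0781 with an intensity trend in the variance model, and 0.116 to 0.372 in the others.

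*Adamts4* (Entrez gene 240913, chr1:171250129-171262267) had the largest fitted difference of the tested probes. On A_55_P2159555 it was at 5.23, 6.40, 5.51 and 5.63 in Co mice and at 6.98, 6.63, 6.15 and 6.89 in Pg mice. The groups overlapped only because Co 2 lay above Pg 3. The mean was 5.69 ± 0.50 in Co mice and 6.66 ± 0.37 in Pg mice. The difference of 0.97 (SE 0.28, interval 0.33 to 1.61), a 1.96-fold higher signal, had an adjusted p of 0.102 in limma, just above the threshold. It was called at 1.08 with scaling to the 75th percentile, at 0.71 in the authors' normalized values, at 0.97 with the stricter filter on dim probes or with the intensity trend, and at 1.14 without Pg 3. It was smaller, at 0.51 with normexp and 0.55 with the median signal, and under the fold limit there. The adjusted p in limma was 0.155 without normalization, 0.161 without a filter, 0.164 with the block and 0.106 to 0.201 in the other 7 fits with 1 array left out. The other 2 probes, at 1.94 to 3.56 in Co mice and 2.01 to 4.32 in Pg mice, were not well above background on any array, so they give no fold and no order.

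*Adamts9* (Entrez gene 101401, chr6:92772699-92944450, a span that holds the lncRNA genes *Gm52913*, *A730049H05Rik* and *Gm15737*) had a fitted difference above 0 on all 4 of its probes, with a q under 0.1 on 2 of them. On A_51_P479390 it was at 5.59, 5.66, 5.81 and 5.76 in Co mice and at 6.31, 5.87, 6.58 and 6.35 in Pg mice. The groups did not overlap, although Pg 2 lay close to the highest Co array. The difference of 0.57 (SE 0.14, interval 0.24 to 0.90), a 1.49-fold higher signal, had an adjusted p of 0.0789 in limma. This was the lowest p of the 17 tested probes. On A_55_P2504780, the brightest probe and one of the RefSeq transcript NM_175314, it was at 8.95, 8.93, 8.88 and 8.84 in Co mice and at 9.22, 9.06, 9.16 and 9.09 in Pg mice. These groups did not overlap either, but the difference was smaller, at 0.23 (SE 0.06, interval 0.10 to 0.37) or 1.18-fold, with an adjusted p of 0.0796 in limma. The remaining probes gave 0.19 (A_51_P407417, adjusted p of 0.417) and 0.28 (A_55_P2717822, adjusted p of 0.357) in limma. On both of these the groups overlapped and the interval began at -0.11. With 1 array left out at a time, A_51_P479390 had an adjusted p under 0.1 only without Pg 2, when its difference was 0.71, and A_55_P2504780 in none of the 8 fits (0.120 to 0.163). The difference of A_51_P479390 was 0.24 with normexp, 0.25 with the median signal and 0.30 in the authors' values, each with an adjusted p above 0.1 in limma.

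**Figure D4:**
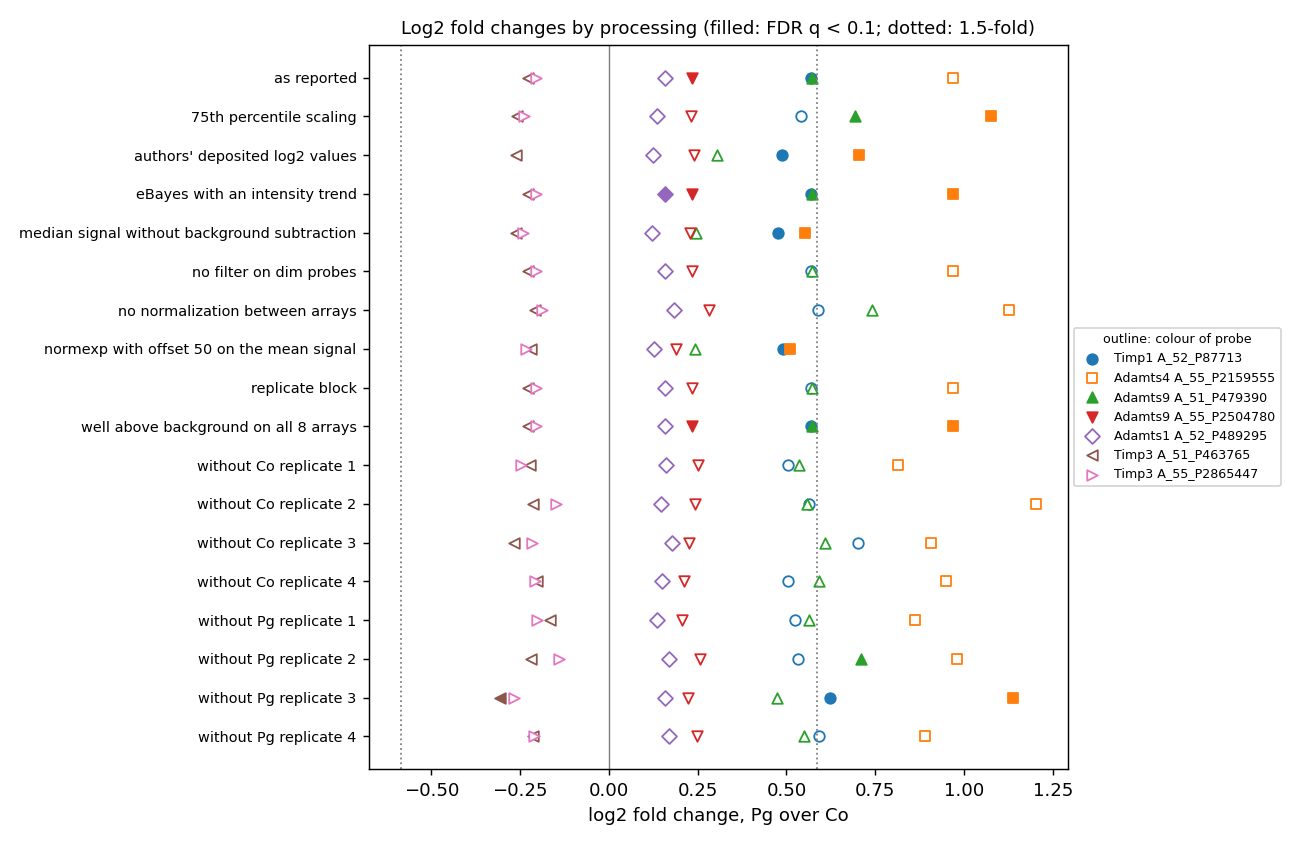
The horizontal axis is the log2 fold change, Pg over Co, of 7 probes under each processing alternative and with each array left out, listed on the vertical axis. Filled symbols have an FDR q under 0.1 in that fit and the dotted lines stand at a fold change of 1.5; the *Timp1*, *Adamts1*, *Adamts4* and *Adamts9* symbols stay right of 0 and those of the 2 *Timp3* probes left of 0 throughout, while few of them are filled.

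Markers of immune cells were set beside these values. *S100a8*, a neutrophil marker, was at 4.56, 5.20, 5.33 and 5.09 in Co mice and at 8.59, 8.32, 5.18 and 6.76 in Pg mice, a difference of 2.16 (SE 0.71) with an adjusted p of 0.132 in limma. Pg 3 was the lowest Pg array for *S100a8*, for *Timp1* and for *Adamts4*, but the highest for *Adamts9* A_51_P479390. *S100a9* differed by 2.04 (adjusted p of 0.195), *Csf3r* by 0.24 (0.181), *Ly6g* by 0.09 (0.731) and *Camp* by 0.01 (0.941), so that none of the tested neutrophil markers had an adjusted p under 0.1 in limma. All 5 tested neutrophil markers were fitted higher in Pg mice, 3 of them with an unadjusted p under 0.05 in limma. Of the 7 neutrophil markers 5 were well above background on all arrays and *Ngp* on none. Their summed signal, most of it from *Csf3r* (mean log2 signal 15.52), ranged from 15.29 to 15.62 in Co mice and from 15.54 to 15.75 in Pg mice. Of the 7 macrophage markers 6 were well above background on all arrays, with summed signals of 11.81 to 12.28 in Co mice and 11.54 to 12.77 in Pg mice. Endothelial markers, 7 of 7 above background, summed to 13.54 to 13.89 in Co mice and 13.80 to 13.92 in Pg mice. The part of these cells in the values of the proteases and inhibitors was not tested.

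The 3 genes whose probes were nearest to *Adamts9* A_51_P479390 over the 8 arrays were *C4bp-ps1*, *Brd7* and *Kcnq1ot1*. The measure was the root mean square difference of values centred on their own mean, among 22963 probes of named genes that were well above background on all arrays. It was 0.112 for *C4bp-ps1*, 0.120 for *Brd7* and 0.127 for *Kcnq1ot1*. They were picked for this likeness, so their own differences between the groups are not given.

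The other matrix proteases and their partners were read from 4 lists, with the brightest tested probe standing for a gene. Over all 22323 genes so tested, 263 were called, 47.2% had a fitted difference above 0 and the median was -0.01. Of 20 other matrix metalloproteinases 7 were tested, with 5 higher and 2 lower, 1 called, 2 with a q under 0.1 and a median of 0.19. The other 13, among them the gelatinase *Mmp9* and the collagenase *Mmp13*, were well above background on at most 1 array. *Mmp19* was the one called, at 7.47, 7.41, 7.48 and 7.35 in Co mice and at 8.05, 8.44, 8.06 and 8.01 in Pg mice. The groups did not overlap, and *Mmp19* rose by 0.71 (SE 0.10), with an adjusted p of 0.0411 in limma. *Mmp19* was not called with normexp background correction, without normalization between arrays or with the slide column as a block. *Mmp28* was higher by 0.27 (SE 0.07) with an adjusted p of 0.0775 in limma, below the fold limit.

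Of 16 other ADAMTS proteases 12 were tested, with 5 higher and 7 lower, none called, none with a q under 0.1 or an unadjusted p under 0.05 in limma, and a median of -0.01. *Adamts6* was at 4.47 to 4.74 in Co mice and 4.28 to 6.67 in Pg mice, a difference of 0.90 with an adjusted p of 0.301 in limma. *Adamts17* differed by -0.76 with an adjusted p of 0.328 in limma, and Co 3, at 8.21, lay far above the other 7 arrays (5.93 to 6.56).

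Of 15 activators and other inhibitors of these proteases 14 were tested, with 8 higher, 6 lower and none called, 1 higher and 1 lower with a q under 0.1, and a median of 0.05. *Furin*, the proprotein convertase that activates MMP14 and ADAMTS precursors, was higher by 0.24 (SE 0.06) on its brightest probe, with an adjusted p of 0.0695 in limma. Its other probe gave -0.03 with an adjusted p of 0.912 in limma. *Bsg* (basigin), a membrane protein that induces matrix metalloproteinases, was lower by 0.30 on the log2 scale (-0.30, SE 0.06), without overlap and with an adjusted p of 0.0556 in limma. *Adam15* differed by 0.29 with an adjusted p of 0.110 in limma.

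Of 15 proteoglycan and glycoprotein substrates 13 were tested, with 9 higher and 4 lower, none called, none with a q under 0.1, 1 with an unadjusted p under 0.05 in limma, and a median of 0.05. *Fn1* (fibronectin) differed by 0.57 (SE 0.21) with an adjusted p of 0.168 in limma, and *Vcan* (versican), a substrate of ADAMTS1, ADAMTS4 and ADAMTS9, by 0.23 with an adjusted p of 0.369. Other tested probes gave 0.12, 0.51 and 0.75 for *Fn1* and 0.12 and 1.32 (SE 0.64) for *Vcan*. Their adjusted p was 0.165 to 0.729 in limma, and only the *Fn1* probe at 0.75 had groups that did not overlap.

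**Figure D5:**
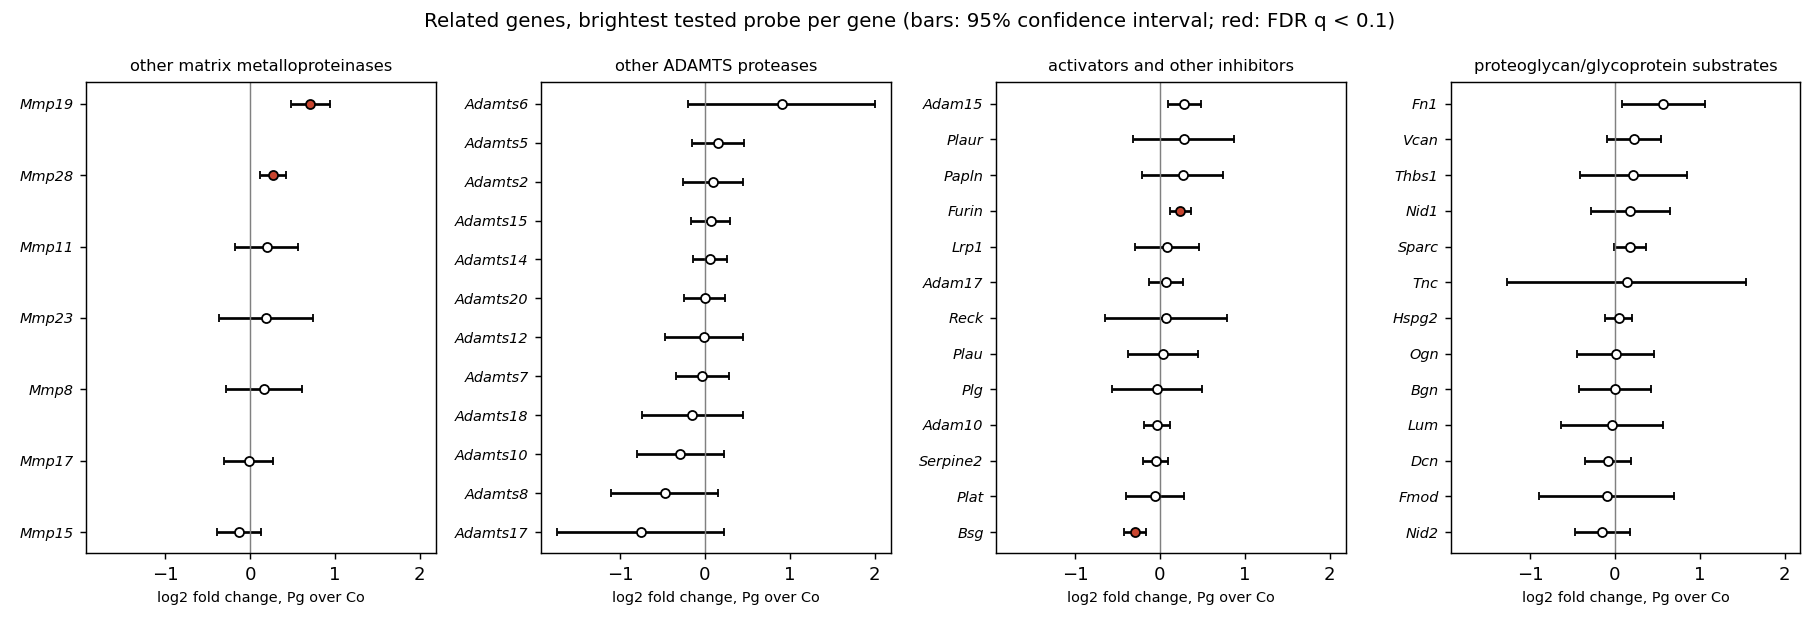
The horizontal axis is the log2 fold change, Pg over Co, with its 95% confidence interval from limma, for the tested genes of the 4 lists, 1 panel per list and the brightest tested probe per gene, without 1 gene of the third list. The 4 red points, *Mmp19*, *Mmp28*, *Furin* and *Bsg*, have an FDR q under 0.1, and only *Bsg* among them lies left of 0.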

How the data were processed

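Total RNA of BAT, in 8 samples, was labelled with Cy3 and hybridized to Agilent SurePrint G3 arrays. The authors deposited the output of Agilent Feature Extraction 11.0.1.1, with the intensity of every spot, and a table of quantile-normalized log2 values, whose columns of their own comparison (log2 fold change, moderated t, p, adjusted p and B) were not used. Probe positions are those of mm9 per the file headers, and gene positions those of RefSeq (GRCm38.p6, all 10 genes matched; 13 of 13 RefSeq accessions of the probes matched their gene). Exon or UTR membership of the probes was not assigned.

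Spots were read with the R package data.table (version 1.17.8) under R 4.3.3. Outlier spots were left out, processed intensities were averaged per probe, quantile-normalized, set to at least 1 and put on the log2 scale, and probes well above background on at least 4 of 8 arrays were kept (33819 of 56605). The difference of Pg from Co was fitted in limma 3.58.1 (lmFit, eBayes; two-sided, no covariates), and p-values were adjusted by Benjamini-Hochberg over all probes kept. The script was tested on simulated data. The labels give each array as a separate sample without naming the animal, so p-values measure the spread between samples, and the number of arrays limits the precision.

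All probes of the 10 genes are named. A tested probe got its 8 values if called, with q under 0.1, without overlap, or brightest of its gene; the values of *Mmp3* were added. From the lists, genes called, those with q under 0.1 and the 2 largest differences per list are named. *Ucp1*, *Elovl3*, *Slc27a2*, *S100a8* and the other brown adipocyte, muscle, neutrophil and endothelial markers, *Mmp9* and *Mmp13* were named after their values were seen. The values of 1 listed gene are not reported here. The genes and lists were chosen with earlier results of these data known. Alternatives were normexp with an offset of 50, the median signal, scaling to the 75th percentile, no normalization, other filters, the authors' log2 values, an intensity trend, a replicate block and each array left out.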

Additional observations from a re-analysis of the deposited data

Results flagged for a closer look

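Each group of 4 arrays was checked for a sample far from the others, in 34 groups (17 probes in Co and in Pg mice), and chance marks about 1 in 20 such groups. *Adamts9* A_51_P407417 in Pg 2 was at 5.946, while the other Pg arrays lay at 6.28 to 6.29. *Timp2* A_65_P12392 in Co 2 was at 8.966, while the other Co arrays lay at 9.29 to 9.36. Both probes stayed above the adjusted p of 0.1 in limma with these arrays included.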

How the results depend on the processing

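Of 285 alternative values of single probes, 260 kept their sign and were not called, as before, 8 were called with the same sign and 17 changed sign. This tally uses q and fold together, and q alone crossed 0.1 more often: for *Timp1* in 7 of 8 fits with 1 array left out and for *Adamts9* A_55_P2504780 in all 8. The count of called probes (0 of 17) was 2 with scaling to the 75th percentile (*Adamts4* and *Adamts9* A_51_P479390), 1 each with the filter on all 8 arrays, the authors' log2 values (which hold 14 of the probes) and the intensity trend (*Adamts4* each time), and 0 to 2 with 1 array left out. The count with q under 0.1 (3 of 17) was 0 without normalization or without a filter, 5 with the trend, and 0 to 3 with 1 array left out. With the replicate number as a block it was 0, and no probe of the whole array was called. No label ties same-numbered mice to each other, but the number is also the slide column. Same-numbered arrays had correlations of deviations of -0.0684 to 0.178, and 4 of 8 arrays correlated best with their own number. The count without overlap (4 of 17) was 2 with normexp or without normalization and 1 with the median signal or the authors' values. With 1 array left out it was 4 to 8, the highest without Pg 3 (6 higher and 2 lower). A smaller group separates more easily on any probe. The share over all tested probes was not counted in these fits, so the rise is not read as a result. The count of other matrix metalloproteinases called (1, *Mmp19*) was 0 with normexp, 0 without normalization and 0 with the block. Signs changed only for differences near 0. *Mmp14* was at -0.018 with normexp, -0.034 with the median signal, -0.027 in the authors' values and -0.12 to 0.13 with 1 array left out. *Mmp2* was at -0.0053 to 0.28 and *Timp4* A_51_P355427 at -0.089 to 0.013 with 1 array left out, both changing sign without Pg 2. *Timp4* A_55_P2908603 was at -0.019 with normexp, -0.041 with the median signal, -0.014 with the 75th percentile, -0.048 in the authors' values and -0.021 to 0.059 with 1 array left out. The cause was not tested. Probes near background, those of *Mmp3* and 2 of *Adamts4*, could not be compared.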

Other observations

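Some probes of the related genes other than the brightest had a q under 0.1 in limma. *Adam17*, the sheddase that TIMP3 inhibits, was lower on A_55_P2612184 by -0.39 (adjusted p of 0.0498 in limma), while its brightest probe was at 0.07. *Hspg2* (perlecan) was lower on A_55_P1959648 by -0.50 (adjusted p of 0.0645 in limma), with its brightest probe at 0.05. Of the 7 endothelial markers 4 were fitted higher and 3 lower in Pg mice. *Kdr*, the VEGF receptor 2, was higher by 0.57 (SE 0.11, adjusted p of 0.0573 in limma) and *Pecam1* differed by -0.20 (SE 0.07, adjusted p of 0.151 in limma), both with no overlap between the groups. *Tie1* and *Tek* differed by -0.14 each, *Cdh5* by 0.13, *Emcn* by 0.10 and *Esam* by 0.06, with adjusted p of 0.441 to 0.699 in limma.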
